A study of Mus musculus with 68 samples.

Results

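Elastic fibres are the recoil springs of the lung and of its arteries. Soluble tropoelastin, the product of Eln, is laid down on a scaffold of fibrillin microfibrils with the help of fibulins and microfibril-associated glycoproteins. Lysyl oxidases then cross-link it into an insoluble polymer, and most of this synthesis takes place before adult life, by smooth muscle cells in vessel walls and by fibroblasts in the alveolar septa.

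The genes described here are 10 elastic fibre genes, chosen by symbol: Eln, the microfibril genes Fbn1, Mfap4 and Emilin1, the fibulin genes Fbln1, Fbln2 and Fbln5, and the cross-linking enzyme genes Lox, Loxl1 and Loxl2. They are 10 of 24583 gene names on the array, and 19 of the 43941 features with a single gene name carried one of these symbols. Each gene was read at its brightest probe by the mean over all 68 arrays, and its other probes served as a check. All 10 passed the filter on low values when septa and vessel were tested together.

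RNA came from alveolar septa and vessels cut by laser from mouse lungs and was measured on 1-colour Agilent arrays, 34 per compartment. In each compartment the 3-month groups were wild type in room air (5 arrays), wild type exposed to cigarette smoke (5), animals labelled Fgf10 knock-down in room air (4) and animals labelled Fgf10 knock-down exposed to smoke (5). The protocol text gives the reduced-dose genotype as Fgf10+/-, without strain or age. The 8-month groups were wild-type controls in room air (5), wild-type controls exposed to smoke (5) and smoke-exposed animals labelled as overexpressing Fgf10 (5). These 8-month exposures were followed by 1 week of treatment with or without doxycycline, and the labels do not say which animals received it, nor what drives the transgene. Replicate 4 of wild-type smoke septa has a title and a genotype entry that disagree (the entry reads knock-down), and the title was followed. The labels call the replicates biological and do not tie them to named animals.

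Fgf10, the mesenchymal growth factor whose dose the study set out to change, was read first. Its log2 intensity on septa arrays of room air animals was 7.71 ± 0.58 (SD, n = 5) for wild type and 8.36 ± 0.60 (n = 4) for knock-down, a difference of 0.65 ± 0.78 (SE; limma adjusted p = 1). Under smoke it was lower on septa arrays labelled knock-down, with a difference of -2.68 ± 0.74 (limma adjusted p = 0.0498), and -1.65 (adjusted p = 0.998) without the low-correlation arrays described next. On arrays labelled overexpression it differed from the smoke controls by -0.80 ± 0.74 in septa and -1.84 ± 0.92 in vessel (limma adjusted p = 1 in both). Fgf10 was near background on some arrays. It lay above the percentile of 40 of the array (log2 5.32) on 2 of 5 knock-down smoke septa arrays and 2 of 5 overexpression vessel arrays. This limits the sizes of those differences. In room air vessel it lay above that percentile on 1 of 5 wild-type and 1 of 4 knock-down arrays. The array signal of Fgf10 in septa therefore did not follow the labels in room air or after overexpression. In vessel it was often too near background to tell. Groups are called by their labels throughout.

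On 3 arrays labelled knock-down smoke, 2 in septa and 1 in vessel, the median correlation with the other arrays of the compartment was 0.287 (septa replicate 1), 0.00573 (septa replicate 5) and 0.469 (vessel replicate 5). The other arrays lay between 0.709 and 0.946. These are called the low-correlation arrays, and values without them are given below for the comparisons that use the knock-down smoke groups and where leaving them out changes a call or a sign. In bulk RNA, fewer cells of a type and less RNA per cell cannot be told apart.

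Marker levels differed between the compartments. All 8 vascular smooth muscle markers were lower in septa than in vessel; their mean log2 intensity ran from 7.26 to 10.34 (median 9.39) in septa and from 11.25 to 14.00 (median 12.99) in vessel, and 1 of the 8 lay under the percentile of 40 on most septa arrays. With all arrays, 2 of 4 alveolar type 1 cell markers were higher in septa, as were 3 of 4 capillary markers. The test was limma at adjusted p under 0.05, passed by 19.8% of all genes in either direction. Without the low-correlation arrays Ager, Pdpn and Cldn5, the remaining genes of these lists, passed too, all higher in septa. The alveolar fibroblast markers Inmt, Limch1 and Ces1d passed only then, also higher, and the others of that list in neither fit. Of the macrophage markers, Marco, Chil3 and Siglecf were higher in both fits, and Cd68 was lower without those arrays. The vessel arrays also carried markers of other cells: all 5 pulmonary vein cardiomyocyte markers were lower in septa (means 4.87 to 6.97, median 5.32, against 6.44 to 14.27, median 8.50), as were 4 of 7 adventitial fibroblast markers (6.27 to 8.67, median 7.02, against 7.36 to 10.08, median 8.96) and 3 of 4 airway markers (7.10 to 12.67, median 10.53, against 11.42 to 14.53, median 13.22). Without the low-correlation arrays Col14a1 and Scgb1a1, of the adventitial and airway lists, passed as well, both lower in septa. The part of all these cell types in the results below was not tested.

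The fibulins held the widest difference between compartments among the 10 genes and also one that did not pass, so their promoters are shown for comparison. RefSeq windows of 300 bases around a transcription start, most of each lying upstream of it, were taken on mouse build GRCm38.p6. Windows were used for 5 of the 10 genes (Fbn1, Fbln1, Fbln2, Fbln5 and Emilin1), with 2 each for Fbln1 and Fbln5. The reference used held none for Eln, Loxl1, Loxl2 and Mfap4. Windows on the chromosome of Lox were left out, so Lox is not said to lack a window. Fbln1 is shown at its downstream start, chr15:85205758-85206057 on the plus strand. Fbln2 lies at chr6:91212514-91212813 on the plus strand, and the Fbln5 window shown is chr12:101819070-101819369 on the minus strand. Capitals mark GGGCGG, the core of an Sp1-type GC box, or CAGAC, the core of a Smad-binding element, each read on either strand (CCGCCC and GTCTG on the other).
Fbln1: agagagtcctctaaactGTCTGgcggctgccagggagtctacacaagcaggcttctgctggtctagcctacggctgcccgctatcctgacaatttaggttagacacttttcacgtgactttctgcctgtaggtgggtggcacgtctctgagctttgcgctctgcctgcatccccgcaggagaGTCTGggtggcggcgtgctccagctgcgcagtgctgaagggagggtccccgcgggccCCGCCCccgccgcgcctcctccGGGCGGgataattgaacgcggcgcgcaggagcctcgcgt
Fbln2: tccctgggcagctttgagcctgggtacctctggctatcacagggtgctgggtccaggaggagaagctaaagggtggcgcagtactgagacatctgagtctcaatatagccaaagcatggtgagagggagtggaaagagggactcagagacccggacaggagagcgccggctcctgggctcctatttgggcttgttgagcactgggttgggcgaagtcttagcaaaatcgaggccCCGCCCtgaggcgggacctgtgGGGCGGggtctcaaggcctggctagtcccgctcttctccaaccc
Fbln5: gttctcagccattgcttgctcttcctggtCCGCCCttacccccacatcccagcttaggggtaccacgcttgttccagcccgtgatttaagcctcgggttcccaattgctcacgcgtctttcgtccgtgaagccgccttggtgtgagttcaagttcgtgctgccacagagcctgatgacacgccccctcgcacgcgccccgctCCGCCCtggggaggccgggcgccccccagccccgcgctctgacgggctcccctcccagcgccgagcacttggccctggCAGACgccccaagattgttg
All 3 windows shown hold 2 GGGCGG matches. Counted from the start site, with upstream bases negative, they lie at -11 and 12 in Fbln1, at -16 and 7 in Fbln2 and at -221 and -48 in Fbln5. CAGAC occurs 2 times in the Fbln1 window shown and 1 time in the Fbln5 window shown, but not in the Fbln2 window. The second Fbln1 window and the second Fbln5 window, not shown, each hold 0 GGGCGG matches and 2 CAGAC matches. The counts thus depend on the start site chosen. Among all 32851 RefSeq mouse windows of this length 35.7% hold GGGCGG and 49.6% hold CAGAC. None of the 7 windows used here holds TATAAA (13.6% of all windows), TGANTCA (7.81%) or a CArG box (1.63%), read on both strands. These matches describe letters in a window and not sites of binding.

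Over the mean of the 7 conditions, 5 of the 10 genes were lower in septa than in vessel and none was higher (limma, adjusted p under 0.05): Eln, Fbn1, Fbln1, Fbln2 and Loxl1. The fitted difference was negative for all 10, with a median of -0.64 on the log2 scale against -0.01 over all 24150 genes tested. Without the low-correlation arrays Lox (0.07), Loxl2 (0.06) and Mfap4 (0.28) had differences above 0, and the same 5 genes passed. Over those genes 19.8% passed in either direction and 8.85% were lower in septa, or 14.9% without the low-correlation arrays. The plot of septa against vessel levels shows every array.

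**Figure D1:**
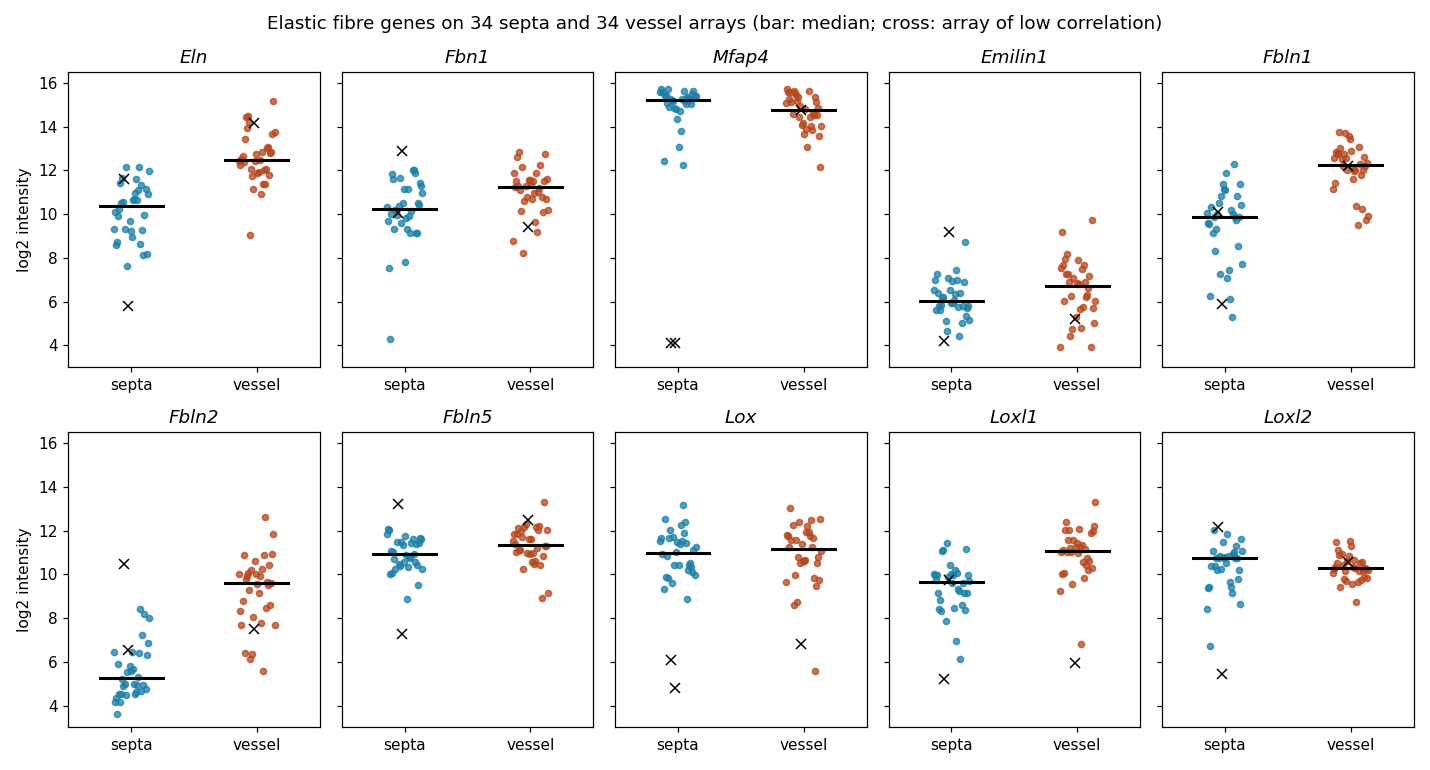
Log2 intensity (y axis) of each of the 10 elastic fibre genes at its brightest probe on every array, by compartment (x axis); crosses are the 3 low-correlation arrays and bars are medians. Fbln2 lies between 3.60 and 10.47 in septa and between 5.59 and 12.64 in vessel, while Lox and Loxl2 overlap almost entirely.

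Eln itself, the core protein of the fibre, had a lowest, median and highest log2 intensity of 5.78, 10.38 and 12.16 in septa and 9.05, 12.48 and 15.15 in vessel. The ranges overlapped, but the vessel median lay above the highest septa array. The fitted means were 10.07 in septa and 12.60 in vessel, a difference of -2.54 ± 0.29 (SE), or 5.80-fold (limma adjusted p = 4.54e-10), and -2.39 without the low-correlation arrays. A second Eln probe gave -1.10 ± 0.34 (adjusted p = 0.0137). Both probes were lower in septa, by unequal amounts.

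Among the microfibril genes, Fbn1 encodes fibrillin-1, the backbone of the microfibril. Its log2 intensity was 4.27, 10.25 and 12.90 in septa and 8.20, 11.22 and 12.85 in vessel (lowest, median and highest). The difference of -0.81 ± 0.30 lay at the threshold (limma adjusted p = 0.0492; 0.0219 without the low-correlation arrays), and it lost its call when any of 43 of the 68 arrays was left out. A second Fbn1 probe gave -0.96 (adjusted p = 0.0206), and another, dim probe 0.11 (adjusted p = 0.832).

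Mfap4, a microfibril-associated glycoprotein that binds elastin and fibrillin, read 4.12, 15.21 and 15.71 in septa and 12.15, 14.77 and 15.71 in vessel, close to the highest value of the deposited data. Both low-correlation septa arrays read 4.12 and every other septa array 12.25 or more. The difference was -0.34 ± 0.42 with those arrays and 0.28 without them (limma adjusted p = 0.645 with them), so its sign rests on them. Emilin1, an elastin-associated microfibril glycoprotein, was dim: 28 of 34 septa arrays and 26 of 34 vessel arrays lay above the percentile of 40 of the array, a log2 intensity of 5.32. Its difference was -0.34 ± 0.30 (limma adjusted p = 0.483).

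The fibulins bridge tropoelastin to microfibrils and basement membranes. Fbln2 was the gene with the widest difference of the 10. It read 3.60, 5.26 and 10.47 in septa and 5.59, 9.59 and 12.64 in vessel, and it lay above the percentile of 40 on 16 of 34 septa arrays and on all 34 vessel arrays. The difference was -3.51 ± 0.34, or 11.4-fold (limma adjusted p = 4.26e-12), with no exact size because most septa readings were near background. Without the low-correlation arrays it was -3.72.

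Fbln1, which binds fibronectin and elastin, read 5.28, 9.88 and 12.27 in septa and 9.52, 12.24 and 13.75 in vessel. The difference was -2.69 ± 0.30, or 6.44-fold (limma adjusted p = 2.05e-10), and -2.61 without the low-correlation arrays. Its other probes gave -3.25 (adjusted p = 1.42e-11) and -2.91 (adjusted p = 8.1e-13), so all 3 probes showed it. Fbln5, which loads cross-linking enzyme and tropoelastin onto microfibrils in mice, read 7.29, 10.91 and 13.23 in septa and 8.91, 11.33 and 13.31 in vessel. Its difference of -0.46 ± 0.25 did not pass (limma adjusted p = 0.205), nor did its other probes at -0.65 and 0.21 (adjusted p = 0.127 and 0.808).

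Of the cross-linking enzymes, Loxl1, which is needed to maintain elastic fibres in adult mice, differed between compartments and Lox and Loxl2 did not pass at their brightest probes. Loxl1 read 5.21, 9.67 and 11.43 in septa and 5.94, 11.07 and 13.31 in vessel, a difference of -1.51 ± 0.32, or 2.84-fold (limma adjusted p = 0.000269), and -1.52 without the low-correlation arrays. Lox, the enzyme that cross-links both collagen and elastin, read 4.80, 10.97 and 13.17 in septa and 5.59, 11.16 and 13.01 in vessel, a difference of -0.11 ± 0.34 (adjusted p = 0.872). Loxl2, better known for collagen, read 5.45, 10.73 and 12.15 in septa and 8.74, 10.29 and 11.54 in vessel, a difference of -0.06 ± 0.25 (adjusted p = 0.914). The Loxl2 probes disagreed: the second was lower in septa, at -1.20 ± 0.32 (adjusted p = 0.00469). The second Lox probe gave 0.34 (adjusted p = 0.543).

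**Figure D2:**
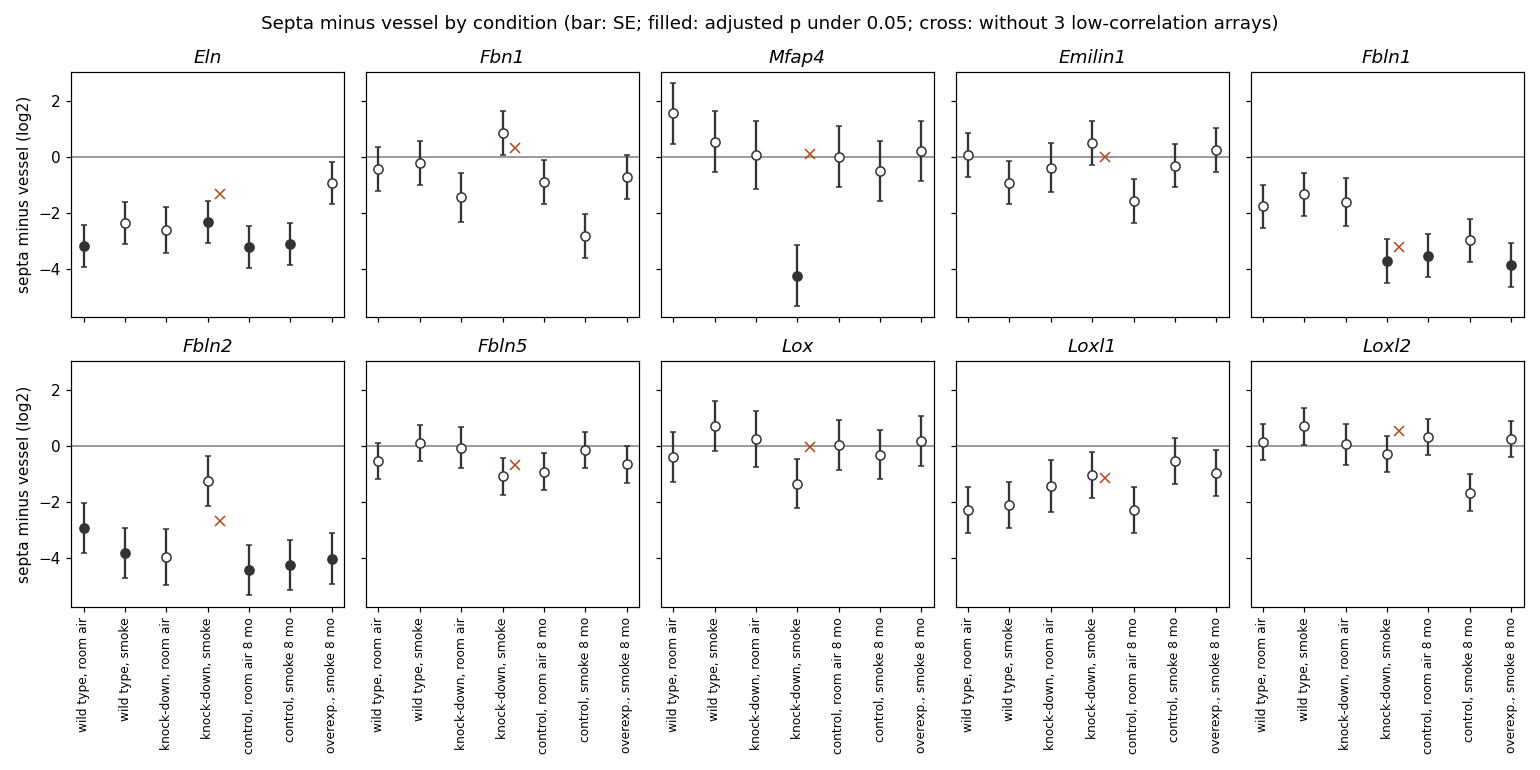
Septa minus vessel difference in log2 intensity (y axis) of each gene in each of the 7 conditions (x axis); bars are the standard error, filled points passed the adjusted test, and crosses are the values without the 3 low-correlation arrays. Eln, Fbln1, Fbln2 and Loxl1 lie below 0 in all 7 conditions, while Loxl2 and Mfap4 do so in 2 each.

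Eln, Fbln1, Fbln2 and Loxl1 were lower in septa in 7 of 7 conditions. Fbn1 and Fbln5 were lower in 6, Emilin1 in 4, Lox in 3, and Loxl2 and Mfap4 in 2. With 4 or 5 arrays a side, fewer differences passed within a condition. With all arrays, Fbln2 passed in 5 conditions, Eln in 4, Fbln1 in 3 and Mfap4 in 1, and the other 6 genes in none.

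In wild-type room air Eln (-3.20, limma adjusted p = 0.00578) and Fbln2 (-2.91, adjusted p = 0.0426) passed, where 4.94% of all genes did. Without the low-correlation arrays, which enter only through the shared spread, Loxl1 (-2.27, adjusted p = 0.0155) and Mfap4 also passed (15.8% of all genes). Mfap4 was then the exception in direction, higher in septa by 1.56 ± 0.49 (adjusted p = 0.0213). Its septa arrays read 15.02, 15.47, 15.61, 15.40 and 15.38 and its vessel arrays 14.52, 14.85, 13.55, 12.15 and 14.01, with no overlap. In wild-type smoke Fbln2 passed (-3.80, limma adjusted p = 0.0151) with 2.72% of all genes, and Eln and Loxl1 joined it without the low-correlation arrays (13.5%).

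In knock-down room air none of the 10 passed (0.203% of all genes did), and Eln (-2.61) and Fbln2 (-3.96) passed without the low-correlation arrays, with limma adjusted p = 0.0441 and 0.0145 (1.18%). In knock-down smoke 3 passed: Eln (-2.34, adjusted p = 0.0374), Fbln1 (-3.72, adjusted p = 0.0016) and Mfap4 (-4.24, adjusted p = 0.00932), with 8.76% of all genes. Without the low-correlation arrays only Fbln1 of the 10 did (-3.21, adjusted p = 0.037; 2.18%). Mfap4 then differed by 0.10 and Eln by -1.31 (adjusted p = 0.415).

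In the 8-month room air controls Eln (-3.23, limma adjusted p = 0.0166), Fbln1 (-3.53, adjusted p = 0.00936) and Fbln2 (-4.43, adjusted p = 0.0031) passed, with 0.634% of all genes, and 4 of the 10 did without the low-correlation arrays (3.01%). The added gene was Loxl1, lower in septa. In the 8-month smoke controls Eln (-3.10, adjusted p = 0.0356) and Fbln2 (-4.24, adjusted p = 0.00888) passed, with 0.439% of all genes, and 5 of the 10 did without the low-correlation arrays (3.13%). Among these 5 were Fbn1 (-2.83) and Loxl2 (-1.65), both lower in septa. After overexpression Fbln1 (-3.86, adjusted p = 0.00521) and Fbln2 (-4.01, adjusted p = 0.0193) passed, with 0.344% of all genes, or 2.02% without those arrays. There the Eln difference was the narrowest of the 7 conditions, -0.92 ± 0.75 (limma adjusted p = 0.939).

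The second Eln probe passed in none of the 7 conditions. It gave -2.47 in wild-type room air (limma adjusted p = 0.0857), -0.26 in wild-type smoke, -1.64 in knock-down room air and -0.64 in knock-down smoke. At 8 months it gave -1.75 in room air, -0.29 in smoke (adjusted p = 0.99) and -0.66 after overexpression. So the Eln difference within the smoke conditions rests on the brightest probe. The other Fbln1 probes were lower in septa in all 7 conditions.

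Within a compartment, none of the 10 genes passed in any of the 20 comparisons of smoke, knock-down, overexpression and age (limma, adjusted p under 0.05). That holds for 200 tests, of which 25 (12.5%) had an unadjusted p under 0.05, 22 lower and 3 higher. Over all genes in the same 20 comparisons the share was 10.5%, so the members' count in either direction lies near the background. The share with a lower reading was 11% of member tests, against 6.09% over all genes. The lowest adjusted p was 0.0542 in septa and 0.11 in vessel. The same count without the low-correlation arrays was also 0. Many of these comparisons share groups, so their values are given side by side and are not separate evidence.

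**Figure D3:**
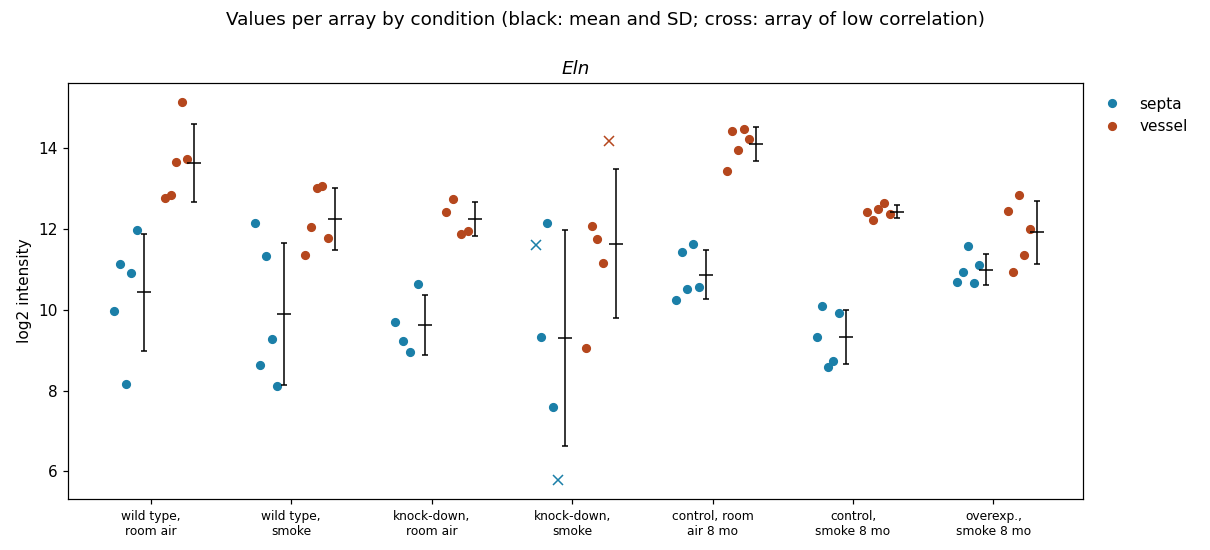
Log2 intensity of Eln (y axis) on every array of the 7 conditions (x axis), septa in blue and vessel in red; black bars are the group mean and SD, and crosses the low-correlation arrays. In vessel the 5 room air controls at 8 months, 13.44 to 14.47, lie above all 5 arrays of both 8-month smoke groups.

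The mean Eln signal in vessel was lower in smoke than in room air in wild type at 3 months and in the 8-month groups, though no difference passed after adjustment. In the 8-month room air controls it read 13.44, 14.42, 13.96, 14.47 and 14.22. In the smoke controls it read 12.43, 12.22, 12.50, 12.64 and 12.36, and after overexpression 12.46, 10.93, 12.84, 11.37 and 12.01. Both smoke groups lay wholly below the room air group and overlapped each other. The difference was -1.67 ± 0.59 for smoke (limma unadjusted p = 0.00817, adjusted p = 1; 0% of all genes passed) and -2.18 ± 0.59 for overexpression after smoke against room air (unadjusted p = 0.000843, adjusted p = 0.36; 0.04%). Unadjusted, 3.54% and 4.4% of all genes had a p under 0.05 in these comparisons, which share the room air arrays. With array weights the second difference was -2.08 and passed (limma adjusted p = 0.0222).

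At 3 months vessel Eln read 12.77, 12.84, 13.65, 15.15 and 13.73 in wild-type room air and 11.36, 12.04, 13.02, 13.06 and 11.77 in wild-type smoke. On knock-down room air arrays it read 12.42, 12.75, 11.87 and 11.94, wholly below the wild-type room air arrays. On knock-down smoke arrays it read 9.05, 12.07, 11.75, 11.15 and 14.18, the highest of these on the low-correlation array. The differences from wild-type room air were -1.38 ± 0.59 for smoke (limma unadjusted p = 0.0258, adjusted p = 0.33) and -1.39 ± 0.63 for knock-down (unadjusted p = 0.0343, adjusted p = 0.302), again against shared arrays. Of all genes 0.142% passed for smoke and 0.32% for knock-down, and 12.2% and 14.8% had an unadjusted p under 0.05.

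The second Eln probe gave -1.80 for wild-type smoke in vessel, -1.85 for 8 months of smoke and -1.68 for overexpression against room air (limma adjusted p = 0.239, 1 and 0.924). For knock-down in room air it gave -0.50, so that difference was smaller at the second probe.

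The levels of 2 marker lists, smooth muscle and macrophage, are given beside these vessel values. Of all the marker lists read, they had the highest and the lowest Pearson correlation with vessel Eln. For the other lists it ran from -0.356 (alveolar type 1) to 0.278 (pulmonary vein cardiomyocyte). The smooth muscle mean log2 intensity ran from 12.97 to 13.43 in wild-type room air, 12.30 to 12.95 in wild-type smoke, 13.19 to 13.40 in knock-down room air and 11.25 to 13.05 in knock-down smoke. At 8 months it ran from 13.02 to 14.00 in room air, 12.18 to 13.81 in smoke and 12.35 to 13.02 after overexpression. It was thus lower at the median in each smoke group than in the matched room air group, but not in knock-down room air (median 13.31) against wild-type room air (13.19), where Eln was lower. All 8 markers were detected in vessel, with at most 1 of them under the percentile of 40 on most arrays of a group. Over the 33 vessel arrays other than the low-correlation one, Eln and this mean had a Pearson correlation of 0.628 (Spearman 0.522), across arrays that also differ in condition. Over 32 septa arrays the Pearson correlation was -0.02.

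The mean of the 4 macrophage markers ran the other way. In vessel it had a lowest, median and highest of 6.75, 8.13 and 9.68 in wild-type room air and 9.64, 10.62 and 12.73 in wild-type smoke. At 8 months it had 6.76, 8.61 and 9.49 in room air, 8.69, 11.05 and 13.09 in smoke and 9.40, 10.54 and 11.27 after overexpression. In knock-down room air it had 7.90, 8.71 and 10.83 and in knock-down smoke 8.68, 11.68 and 13.08. Its Pearson correlation with vessel Eln was -0.642 (Spearman -0.597) over the same 33 arrays, and -0.298 with septal Eln. The part of smooth muscle and of macrophages in the vessel Eln values was not tested.

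Septal Eln was more spread. It read 10.25, 11.42, 10.51, 11.64 and 10.56 in the 8-month room air controls and 9.34, 10.08, 8.60, 8.73 and 9.91 in the smoke controls. After overexpression it read 10.69, 10.94, 11.59, 10.66 and 11.12. The smoke controls lay wholly below both other groups, which overlapped. The difference was -1.54 ± 0.86 for smoke (limma unadjusted p = 0.0798, adjusted p = 0.747) and 1.66 ± 0.86 for overexpression against smoke (unadjusted p = 0.0595, adjusted p = 1). The second Eln probe did not show this pattern, at -0.40 and -0.20 (limma adjusted p = 0.995 and 1).

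In septa at 3 months Eln read 9.98, 11.14, 8.17, 10.91 and 11.97 in wild-type room air, 12.16, 8.64, 11.34, 9.27 and 8.12 in wild-type smoke, and 9.70, 9.22, 8.96 and 10.65 in knock-down room air. These groups overlapped.

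**Figure D4:**
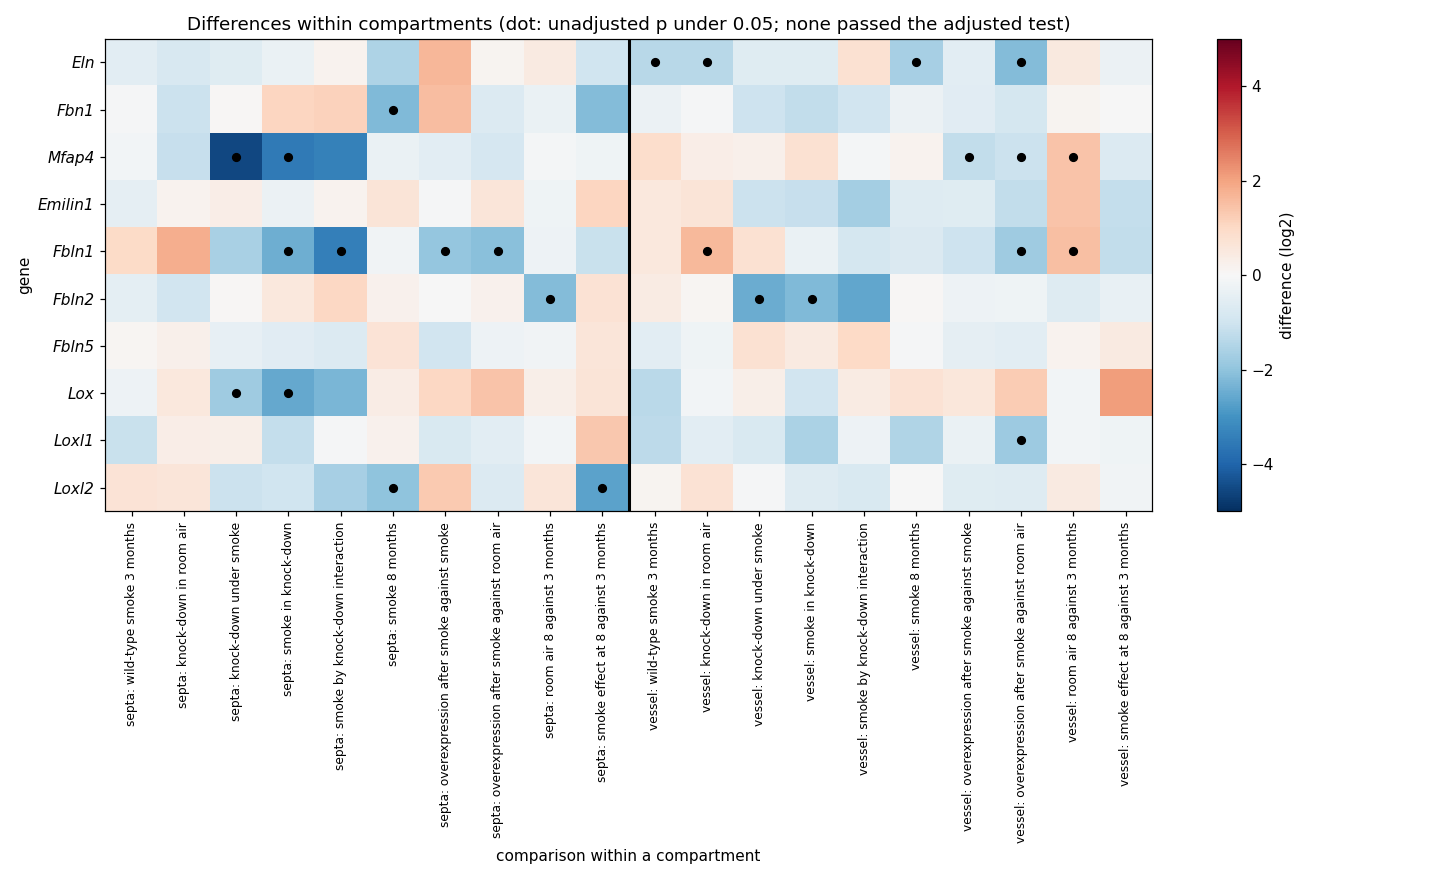
Log2 difference of each of the 10 genes (rows) in each comparison within septa and within vessel (columns), from the limma fit, coloured by its sign and size; dots show an unadjusted p under 0.05. No cell passes at an adjusted p under 0.05. Dots mark 25 cells (12.5% of cells, against 10.5% over all genes), of which 22 are negative (11%, against 6.09%).

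Smoke for 3 months in wild type moved none of the 10 genes past the threshold. In septa no member had an unadjusted p under 0.05, where 3.52% of all genes did and 0.0046% passed after adjustment, and the members ran from -1.13 to 0.95. In vessel only Eln did, as given above. The labelled knock-down in room air gave no member an unadjusted p under 0.05 in septa (2.28% of all genes; 0% passed). In vessel it gave Eln and Fbln1, the latter higher by 1.64 (limma unadjusted p = 0.0149, adjusted p = 0.233). Vessel Fbln1 read 12.61, 12.19, 9.71, 12.32 and 9.93 in wild-type room air against 13.59, 13.44, 12.86 and 12.08 in knock-down room air, and the groups overlapped. The other Fbln1 probes gave 2.16 and 1.12 (adjusted p = 0.381 and 0.51).

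For Mfap4 and Lox the comparisons with the knock-down smoke septa rested on the low-correlation arrays. Mfap4 read 4.12, 15.19, 15.18, 14.84 and 4.12 there, against 15.03, 15.37, 15.29, 15.23 and 15.25 in wild-type smoke. The difference was -4.55 ± 1.39 (limma adjusted p = 0.0542), and -0.17 without replicates 1 and 5 (adjusted p = 0.998). Lox read 6.08, 9.58, 11.72, 10.44 and 4.80, a difference of -1.77 (limma adjusted p = 0.158), and 0.29 without those arrays. For these 2 genes the low values sit on the 2 low-correlation arrays. On replicate 5 the mean of the alveolar type 1 markers was 5.94, of the alveolar fibroblast markers 6.48 and of the smooth muscle markers 7.26. Each was the lowest of its septa range, while the adventitial fibroblast mean there, 8.67, was the highest of its range. Replicate 1 had a smooth muscle mean of 10.34, the highest of its septa range. Its alveolar fibroblast mean was 11.09 and its alveolar type 1 mean 10.24. The part of these cells in the result was not tested.

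Those 2 genes were the members with an unadjusted p under 0.05 for knock-down under smoke in septa, where 28.6% of all genes had one and 2.89% passed. Leaving out any one of knock-down smoke septa replicates 2, 3 and 4 in place of the low-correlation arrays made Mfap4 pass (limma adjusted p = 0.00536, 0.0144 and 0.00648), and leaving out replicate 3 did so for Lox (0.0278). For smoke within the knock-down, Fbln1 (-2.46), Lox (-2.55) and Mfap4 (-3.54) had limma adjusted p = 0.0985, 0.0801 and 0.121 (28.2% of all genes unadjusted; 0% passed). Without the low-correlation arrays these were -1.84, -0.50 and 0.84. The smoke by knock-down interaction gave Fbln1 -3.41 (limma unadjusted p = 0.0122, adjusted p = 0.23; 18.6% unadjusted, 0% passed). Without the low-correlation arrays it was -2.79 (limma unadjusted p = 0.0386, adjusted p = 0.713), so Fbln1 kept its sign and most of its size. Its other probes gave -2.79 and -0.40 with all arrays (adjusted p = 0.23 and 0.827).

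In vessel, Fbln2 had the largest difference of the 10 for knock-down under smoke. On knock-down smoke arrays it read 6.12, 10.18, 6.35, 8.07 and 7.52, against 12.64, 8.44, 9.63, 9.51 and 10.44 in wild-type smoke. The 2 groups overlapped through 1 knock-down array. The difference was -2.48 ± 0.96 (limma unadjusted p = 0.0146, adjusted p = 0.124), where 5.37% of all genes passed and 20.6% had an unadjusted p under 0.05. It was -2.45 without the low-correlation arrays (adjusted p = 0.155). Against knock-down room air it was -2.19 (adjusted p = 0.498; 0.182% passed, 9.66% unadjusted). No member had an unadjusted p under 0.05 for the interaction in vessel (0.0222% passed, 15.8% unadjusted).

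**Figure D5:**
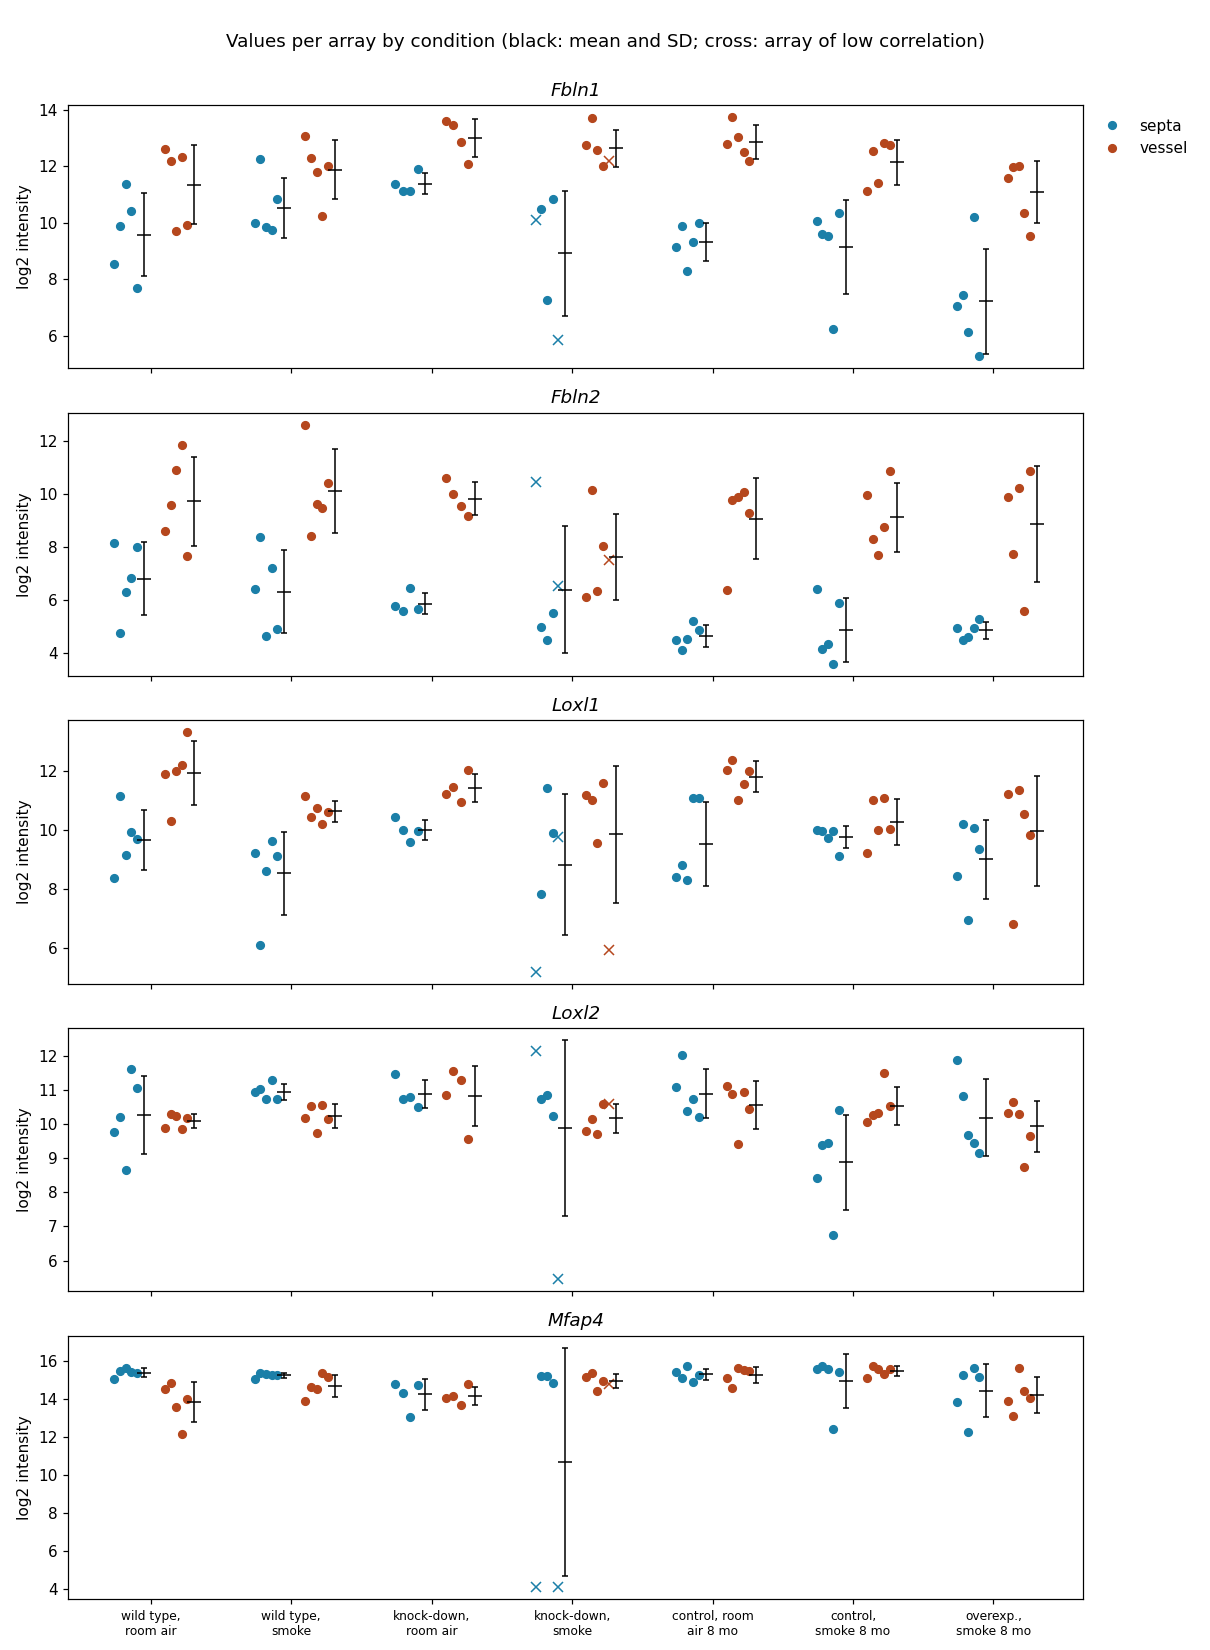
Log2 intensity (y axis) of Fbln1, Fbln2, Loxl1, Loxl2 and Mfap4 on every array of the 7 conditions (x axis), septa in blue and vessel in red; black bars are the group mean and SD, and crosses the low-correlation arrays. Septal Loxl2 lies between 6.74 and 10.40 in the 8-month smoke controls and between 10.20 and 12.01 in the room air controls.

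Smoke for 8 months went with lower septal readings of Loxl2 and Fbn1, neither past the threshold after adjustment. Loxl2 read 11.08, 12.01, 10.37, 10.74 and 10.20 in room air and 8.42, 9.38, 9.44, 6.74 and 10.40 in smoke, and 11.86, 10.82, 9.66, 9.44 and 9.14 after overexpression. The smoke controls overlapped room air through 1 array, and the overexpression arrays overlapped both. The difference for smoke was -2.00 ± 0.80 (limma unadjusted p = 0.0174, adjusted p = 0.601; 0.0753 without the low-correlation arrays, which enter only through the shared spread). Fbn1 read 11.83, 11.61, 9.33, 10.20 and 9.97 in room air and 10.31, 9.68, 7.55, 4.27 and 10.02 in smoke, a difference of -2.22 ± 0.87 (limma unadjusted p = 0.0147, adjusted p = 0.59). Smoke replicate 4 was the lowest array for both genes. Without it Fbn1 was at -1.20 and Loxl2 at -1.47 (limma adjusted p = 0.92 and 0.89). The second Loxl2 probe gave -0.08 (adjusted p = 1) and did not show the difference, while the other Fbn1 probes gave -1.49 and -0.83 (adjusted p = 0.688 and 0.88). Of all genes 0.023% passed and 7.25% had an unadjusted p under 0.05. The effect of smoke at 8 minus that at 3 months was -2.69 for Loxl2 (adjusted p = 0.613; 0.0046% passed, 7.53% unadjusted), and 1.14 at its second probe (adjusted p = 0.904).

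After overexpression the members differed from the smoke controls in 1 septal gene by unadjusted p, Fbln1. It read 7.06, 7.43, 6.14, 10.20 and 5.28, against 10.05, 9.61, 9.53, 6.25 and 10.34 in the smoke controls, and the groups overlapped. The differences were -1.93 against smoke (limma adjusted p = 1; 2.28% of all genes unadjusted, 0% passed) and -2.11 against room air (adjusted p = 1; 2.38% unadjusted, 0.0046% passed), where the room air arrays read 9.14, 9.88, 8.29, 9.34 and 9.99. The other Fbln1 probes gave -0.71 and -1.27 against smoke, and -0.01 and 0.08 against room air (adjusted p = 1 for each), so the second difference was seen at the brightest probe alone.

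In vessel, overexpression against room air gave 4 of the 10 members an unadjusted p under 0.05, all lower: Eln, Fbln1, Loxl1 and Mfap4. Of all genes 4.4% had one and 0.04% passed after adjustment. Vessel Fbln1 read 11.58, 11.96, 12.01, 10.35 and 9.52 after overexpression and 12.79, 13.75, 13.03, 12.51 and 12.18 in room air, with no overlap, a difference of -1.77 (limma adjusted p = 0.776). The other Fbln1 probes did not show it, at 0.90 and -0.23 (adjusted p = 1 for both). Loxl1 read 11.23, 6.83, 11.36, 10.56 and 9.85 against 12.04, 12.37, 11.01, 11.57 and 12.01, which overlapped, a difference of -1.83 (adjusted p = 1), and -1.05 without overexpression replicate 2. Mfap4 read 13.87, 13.08, 15.61, 14.42 and 14.04 against 15.10, 14.58, 15.63, 15.53 and 15.46, which overlapped, a difference of -1.06 (adjusted p = 1). Lox was the single member with a positive difference among the 10, and the median of the 10 was -0.96 against 0.01 over all genes.

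Against the smoke controls the vessel difference of Mfap4 was -1.23 (limma unadjusted p = 0.00886, adjusted p = 1; 2.56% of all genes unadjusted, 0% passed). The smoke controls read 15.07, 15.71, 15.56, 15.28 and 15.57 for Mfap4, wholly above 4 of the 5 overexpression arrays.

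Between the 2 room air groups, 8 against 3 months, Fbln2 had a septal difference of -2.16 (limma unadjusted p = 0.0112, adjusted p = 1; 0.0046% passed, 4.07% unadjusted). It read 4.52, 4.15, 4.53, 5.23 and 4.88 at 8 months, all near background, and 8.16, 4.77, 6.31, 6.84 and 8.02 at 3 months. In vessel Mfap4 was 1.44 higher (adjusted p = 0.11) and Fbln1 1.50 higher (adjusted p = 0.228) at 8 months, where 0.862% of all genes passed and 15.4% had an unadjusted p under 0.05. The other Fbln1 probes gave no rise, at -0.19 and -0.15 (adjusted p = 0.955 and 0.946). The 8-month animals also had the added treatment week, so age, exposure time and that week cannot be told apart. Xist signal also lay over 9.5 on more of the 8-month than of the 3-month room air arrays, in both compartments. Its part in these differences cannot be told apart either. The effect of smoke at 8 minus that at 3 months gave no vessel member an unadjusted p under 0.05 (0% passed, 6.85% unadjusted).

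Whether an effect differed between septa and vessel was tested for 8 contrasts. None of the 80 member tests passed (limma, adjusted p under 0.05), against 0% of all genes in 7 contrasts and 2.48% for knock-down under smoke. With an unadjusted p under 0.05 there were 9, 4 negative and 5 positive, against 6.72% of all tests. The lowest adjusted p was 0.0652, for Mfap4 in knock-down under smoke, where septa minus vessel was -4.79 and, without the low-correlation arrays, -0.45. For Eln the effect of overexpression was higher in septa than in vessel by 2.18 ± 1.06 against smoke and by 2.30 ± 1.06 against room air (limma unadjusted p = 0.0443 and 0.0337, adjusted p = 1 in both). The second Eln probe, given by condition above, did not show the first of these. Its septa minus vessel difference was wider after overexpression than in the 8-month smoke controls, though narrower than in room air.

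The array-to-array variation of the 10 genes was mostly separate. Over the 45 pairs, Pearson correlations ran from -0.454 to 0.567 (median 0.0489) across 32 septa arrays and from -0.281 to 0.481 (median 0.105) across 33 vessel arrays, without the low-correlation arrays. The highest were Fbn1 with Loxl2 in septa (0.567), and in vessel Fbln5 with Lox (0.481) and Eln with Loxl1 (0.470). Arrays of a pair share their condition and their cut of tissue.

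By Pearson correlation with Eln over the 14 group means, the nearest genes were Jph2 (0.951), Niban1 (0.921), Cd209f (0.917), P2rx1 (0.913) and Olfml2b (0.907). Within the 33 vessel arrays they were Smg6 (0.712), Slmap (0.672), P2rx1 (0.65), Tagln (0.649) and Tpm2 (0.643), of which Tagln is a smooth muscle marker used above. Within the 32 septa arrays they were Cacna1d (0.731), Myzap (0.628), Phf12 (0.626), Olfr1010 (0.608) and Pecam1 (0.606). These are the highest values among the genes tested after predicted and clone names were left out, and are a description.

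Other genes of the pathway were described for comparison. Of 20 other elastic fibre genes, 3 were higher and 6 lower in septa than in vessel (limma, adjusted p under 0.05; 19.8% of all genes), with a median of -0.41. Lower were Mfap5, a microfibril glycoprotein (-2.41, adjusted p = 4.45e-09), Fbln7 (-1.28), Bmp1, a procollagen proteinase that also activates lysyl oxidase (-1.03), Ltbp4 (-0.99), Efemp2, the fibulin needed for elastin assembly (-0.97), and Ltbp2 (-0.92). Higher were Emilin2 (1.52), Atp7a, a copper transporter that supplies lysyl oxidases (1.22), and Ltbp1, which holds latent TGF-beta in the matrix (1.21).

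Of 16 elastolytic enzymes and inhibitors, Mmp9 was higher in septa (1.61, limma adjusted p = 0.000763), and Timp4 (-2.16), Mmp2 (-1.68), Cst3 (-1.17) and Prtn3 (-0.61) were lower. Of 8 TGF-beta genes tested, the receptor gene Tgfbr1 was higher (1.55, limma adjusted p = 0.00095), and Tgfb3 (-1.76) and Tgfbi (-0.84) were lower. Tgfbi was at -0.52 without the low-correlation arrays and did not pass (adjusted p = 0.059), and the TGF-beta count was 2 higher and 3 lower. The same step gave 5 higher and 7 lower of the 20 other elastic fibre genes, and 3 higher and 6 lower of the 16 elastolytic ones. With all arrays 19.8% of all genes passed in this comparison, and 8.85% were lower in septa. Without the low-correlation arrays 14.9% were lower in septa, so that share rose over all genes too.

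Within compartments few genes of these lists passed. Ctsk, the elastin- and collagen-degrading protease cathepsin K, was higher by 5.82 ± 0.79 in septa after 8 months of smoke (limma adjusted p = 0.000224), the single one of 16 elastolytic genes to pass there. In vessel, knock-down under smoke gave lower Emilin3 (-2.52, limma adjusted p = 0.00808; 0.0167 without the low-correlation arrays) and lower Loxl4 (-1.82, adjusted p = 0.0329; 0.059 without them), 2 of the 20 other elastic fibre genes where 5.37% of all genes passed. Ltbp1 passed without those arrays (-2.13, adjusted p = 0.0348) and had -1.41 with them (adjusted p = 0.232). In septa, Adamtsl4 (-2.69, adjusted p = 0.0498) and Mmrn2 (-2.93, adjusted p = 0.0493) passed for the same comparison, and neither did without the low-correlation arrays (adjusted p = 0.998 for both).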

How the data were processed

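RNA of laser-cut mouse lung septa and vessels was purified with an RNeasy Micro kit, amplified with the Ovation PicoSL WTA kit and labelled with SureTag for 1-colour Agilent arrays, per the labels' protocols. The log2 intensities deposited by the authors were used as they are. The submitters' processing notes name limma without a version, with the background correction not given in the sources used here. Percentiles of the 68 arrays matched to within 0.00352, as after quantile normalisation. No flags for dim spots came with them.

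Groups were taken from the sample titles. Features were named from the platform annotation, updated by accession through a RefSeq table, which left 43941 features with 1 gene name. A gene, at its brightest probe, was tested if it lay above the percentile of 40 of the array (log2 5.32) on at least 4 arrays, with no missing value among the 44 in the table. The tests covered 21752 genes for septa, 22517 for vessel and 24150 where both entered. Group means were fitted with limma 3.58.1 in R 4.3.3, per compartment or over all 14 groups, with two-sided moderated tests and Benjamini-Hochberg adjustment over all genes of a comparison at 0.05. SE is the moderated standard error. Groups share 1 spread per gene, so the low-correlation arrays enter every test. The number of arrays limits the precision, and p-values measure the spread between these arrays. The script was tested on simulated data.

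The 10 members and the other lists were chosen with earlier results of these data known. By the naming rule all 10 members are named, and genes of the other lists where they pass. Same-numbered septa and vessel arrays of a condition had correlated deviations over 0.1 in 6 of 34 pairs (median 0.0383), while Xist signal lay on the same side of 9.5 in 28 of 34. The labels do not say whether same-numbered arrays share an animal, so the numbers were not used as pairs and a block was run as an alternative. As alternatives the filter was dropped, probes of a gene were averaged, arrays were centred on their median or weighted, and groups were fitted pairwise. Others were a replicate block, the conflicting array moved to knock-down, leaving out the 3 low-correlation arrays, an Xist covariate (signal over 9.5) and leaving out each array in turn. A search of protein sequences had been planned and was not done, as no protein table was used here.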

Additional observations from a re-analysis of the deposited data

Results flagged for a closer look

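In 7 of 140 groups of 4 or 5 arrays, 1 array's reading of a member lay far from the others by Dixon's test, 5 low and 2 high. Chance gives this in about 1 in 20 groups. In septa of the 8-month smoke controls, replicate 4 read 6.25 for Fbln1, with the nearest array at 9.53, and 12.42 for Mfap4, with the nearest at 15.39. The same array gave the lowest Fbn1 reading, 4.27, and the lowest Loxl2 reading, 6.74, of its group. In vessel of the 8-month room air controls, replicate 1 read 6.40 for Fbln2 (nearest 9.29). In knock-down room air vessel, replicate 1 read 11.40 for Lox (nearest 10.65). In wild-type smoke septa, replicate 2 read 6.12 for Loxl1 (nearest 8.61). In knock-down smoke septa, the low-correlation replicate 5 read 5.45 for Loxl2 (nearest 10.24). In wild-type room air septa, replicate 1 read 8.72 for Emilin1 (nearest 5.81).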

How the results depend on the processing

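The count of members lower in septa than in vessel was 5 and ran from 4 to 6 over the alternatives, and from 4 to 5 with each array left out. Eln ran from -2.54 to -1.82, Fbln1 from -2.95 to -2.44, Fbln2 from -3.81 to -3.51 and Loxl1 from -1.55 to -1.51 over the alternatives. Fbn1 had adjusted p from 0.0105 to 0.0546, and its dim probe gave a log2 difference of 0.11. By condition, leaving out the low-correlation arrays gave 4 members in wild-type room air, 3 in wild-type smoke, 2 in knock-down room air, 1 in knock-down smoke (Mfap4 at 0.10) and 5 in the 8-month smoke controls. A replicate block gave 1 in wild-type room air and 1 in the 8-month smoke controls. Whether the numbers pair septa and vessel was not settled: same-numbered arrays were best matched in 10 of 34 pairs, and Xist signal lay on the same side in 28 of 34.

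Within compartments 841 of 850 alternative counts were 0. Exceptions were, in septa, knock-down under smoke (0 to 2 with an array left out; 1, Mfap4, with the Xist covariate), smoke in the knock-down (0 to 3; 1, Lox, with the Xist covariate), and, in vessel, overexpression against room air with array weights (1, Eln). The difference between compartments for knock-down under smoke ran from 0 to 1 with an array left out, passing for Mfap4 without knock-down smoke septa replicate 2, 3 or 4 or vessel replicate 5. In smoke within the knock-down, leaving out knock-down smoke septa replicate 2 or 4 made Fbln1, Lox and Mfap4 pass, and replicate 3 Lox and Mfap4. The causes were not tested. A fit of the compared groups alone was not run for septa against vessel, which uses all groups. Readings near log2 5.32 and near the highest value deposited limit the sizes of the Fbln2, Emilin1 and Mfap4 differences.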
